A study of Mus musculus with 3 samples.

Results

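Interferon-stimulated genes outside the Oas family were followed in RM1-MXRA7 cells against RM1-VE cells. Per the labels, RM1 is a murine prostate cancer cell line, RM1-MXRA7 is that line transfected with MXRA7, and RM1-VE is the line transfected with the vehicle vector. Both lines were kept in DMEM with fetal calf serum and the selection drug G418, and total RNA was taken from exponentially growing cells on day 2. The labels do not say whether either line is 1 clone, nor whether the 3 replicates came from separate transfections or cultures, so p-values measure only the spread between these arrays, which may be technical. The members are 43 named genes, of which 42 were found by name among the probes of the array, and 41 of these were well above background and tested, out of 16819 genes tested in all. The members' 58 kept probes were the basis of what follows, and every gene is represented by its brightest kept probe.

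Interferons are secreted proteins that bind paired receptor chains on the cell surface. Type I interferons signal through Ifnar1 and Ifnar2, and interferon gamma through a receptor that contains Ifngr1. Receptor-bound kinases phosphorylate Stat proteins. A complex with Stat2 and Irf9 binds the interferon-stimulated response element of target promoters, and interferon gamma acts through the gamma-activated site. The targets include sensors of viral nucleic acid, antiviral effectors, and Usp18, which limits signalling at the receptor.

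On each of 3 Agilent 2-colour arrays, RM1-MXRA7 RNA carried Cy3 and RM1-VE RNA carried Cy5, so each array gave 1 log2 ratio of RM1-MXRA7 over RM1-VE per gene. Dyes were not swapped, so dye effects and differences between the lines cannot be told apart. All 3 arrays lay on 1 slide with 1 scan. Between 21767 and 24175 probes per array and channel were well above background, and the number of arrays limits the precision. Log2 ratios of array pairs correlated across genes with Pearson's r of 0.756 to 0.839, where genes are not independent replicates. The probes of Mxra7 had mean log2 ratios of 0.01 (values of 0.06, 0.00 and -0.04) and, for a dimmer one, 0.09 (values of 0.14, 0.10 and 0.04). The brighter Mxra7 probe did not pass the test (limma adjusted p = 0.911), and it reached 0.31 before a positional trend over the array was removed (limma adjusted p = 0.00531). Whether the transfected construct holds the sequence of these probes is not given in the sources used here, so the direction of every ratio below rests on the dyes in the labels. Of the markers read as a check, Krt8, Krt18, Vim and Cdh2 were well above background, while the prostate marker Pbsn and the epithelial markers Krt5, Epcam and Cdh1 were not. Of the leukocyte markers, Ptprc, Lyz2 and Adgre1 were not well above background on all arrays in either channel. Cd68, Itgam and Cd3e were, with log2 ratios of -0.05 for Cd68, -0.20 for Itgam and -0.19 for Cd3e. The endothelial markers Pecam1 and Cdh5 were at -0.12 and -0.77, and Siglech, of plasmacytoid dendritic cells, was at 0.12. Cdh5, Itgam and Cd3e passed the test as lower (limma adjusted p = 0.000862, 0.0332 and 0.0319), while Cd68, Pecam1 and Siglech did not pass. The part of these markers in the results was not tested. In bulk RNA, less RNA per cell and fewer cells that hold it cannot be told apart.

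The sequences below show where the interferon-stimulated response element core stands in promoters of members that moved and of members that did not. The core was searched as GAAANNGAAA on both strands, in RefSeq promoters (GRCm38.p6) that run from 250 bases before to 50 after each gene's start. The 43 listed genes had 39 promoters for 33 genes, and 15 of the 39 (38.5%) held the core, against 1131 of all 32851 promoters (3.44%). Each window is 60 bases long, lies before the start and is written 5′ to 3′ on the gene's strand, with every match of the core inside the window in capitals. Overlapping matches run together, 3 in Isg15 and 2 each in Gbp3, Bst2 and Irgm1. Where the core lies on the opposite strand it reads as TTTCNNTTTC.

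The first 5 windows belong to members that were lower in the RNA labelled RM1-MXRA7.
Gbp3, chr3:142559980-142560039, plus strand: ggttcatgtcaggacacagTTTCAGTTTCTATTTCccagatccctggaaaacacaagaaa
Gbp2, chr3:142620579-142620638, plus strand: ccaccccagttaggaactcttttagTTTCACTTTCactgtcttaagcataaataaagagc
Stat2, chr10:128270251-128270310, plus strand: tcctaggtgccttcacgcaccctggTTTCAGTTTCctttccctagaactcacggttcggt
Rsad2, chr12:26456538-26456597, minus strand: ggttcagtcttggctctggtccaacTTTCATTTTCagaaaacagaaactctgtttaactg
Ifit3, chr19:34583382-34583441, plus strand: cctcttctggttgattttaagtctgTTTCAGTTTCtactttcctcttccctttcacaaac
The next 4 belong to members that did not pass the test.
Isg15, chr4:156200850-156200909, minus strand: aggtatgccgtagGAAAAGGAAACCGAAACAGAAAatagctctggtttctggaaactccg
Bst2, chr8:71537562-71537621, minus strand: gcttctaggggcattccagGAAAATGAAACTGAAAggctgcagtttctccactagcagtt
Irgm1, chr11:48871421-48871480, minus strand: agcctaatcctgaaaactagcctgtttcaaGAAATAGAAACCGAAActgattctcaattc
Igtp, chr11:58199496-58199555, plus strand: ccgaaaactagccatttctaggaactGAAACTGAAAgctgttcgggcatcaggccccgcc

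Among tested members with a promoter, the core was present in 7 of 14 that were lower, in 7 of 13 that did not pass and in 0 of 5 that were higher. No promoter was found, and none was searched, for the higher members Usp18 and Mx1. The same holds for the lower members Dhx58, Iigp1, Parp14 and Rtp4, and for Mx2, Parp9 and Zbp1, which did not pass. The lower members with the core were Eif2ak2, Gbp2, Gbp3, Ifih1, Ifit3, Rsad2 and Stat2. Those not passing were Bst2, Ddx58, Ifitm2, Ifitm3, Igtp, Irgm1 and Isg15. In Ifih1, Ddx58, Eif2ak2 and Ifitm3 the match lay at or after the start, and no window is shown. The gamma-activated site, searched as TTCNNNGAA on both strands, was in 11 of the 39 promoters (28.2%) and in 2726 of all promoters (8.3%). It was present in Ifit2 and Ifnar1 among the higher members, in Eif2ak2, Ifi35 and Samhd1 among the lower, and in Bst2, Ifitm3, Ifnar2, Igtp, Irf1 and Isg20 among those not passing. A match is a description of these letters in this window and was not tested against the ratios.

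In the RNA labelled RM1-MXRA7, 18 of 41 members (43.9%) were lower and 7 (17.1%) were higher at a limma adjusted p of 0.05 or less, and 16 did not pass. Over all 16819 genes tested, 16.3% were lower and 15.6% were higher under the same rule. The members' share of higher genes was thus close to the background, and their share of lower genes was above it. The median log2 ratio was -0.17 over the 41 members and 0.00 over all genes. No member reached a 2-fold difference, and 8 had an absolute log2 ratio of 0.5 or more. All 18 lower members were lower on all 3 arrays, and all 7 higher members were higher on all 3. A call from these same 3 values favours such agreement, so it is no separate evidence. Xaf1 on array 3 was only at -8.54e-05. Of the 16 others, 14 had ratios of both signs among the arrays. The probe of each tested member stood well above background in both channels of every array, and 0 member spots were saturated or marked as outliers, so the filter on dim probes did not select for a difference. With the ratios left as loess normalization gave them, 16 members were lower and 10 higher, against 23.5% and 23.9% of all genes. Median centring in place of loess moved the median of all genes to -0.12 and called 37.6% of genes lower and 8.57% higher, with 23 members lower and 4 higher. Counted as lower under both treatments of the ratios were 15 members, against 12.6% of all genes, and as higher 7, against 11% of all genes. In Agilent's own processed signals all 25 called members kept their sign and 17 kept the call, while Ifnar1, Parp12, Mx1, Rsad2, Ifi47, Ifi35, Xaf1 and Rtp4 lost it.

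**Figure D1:**
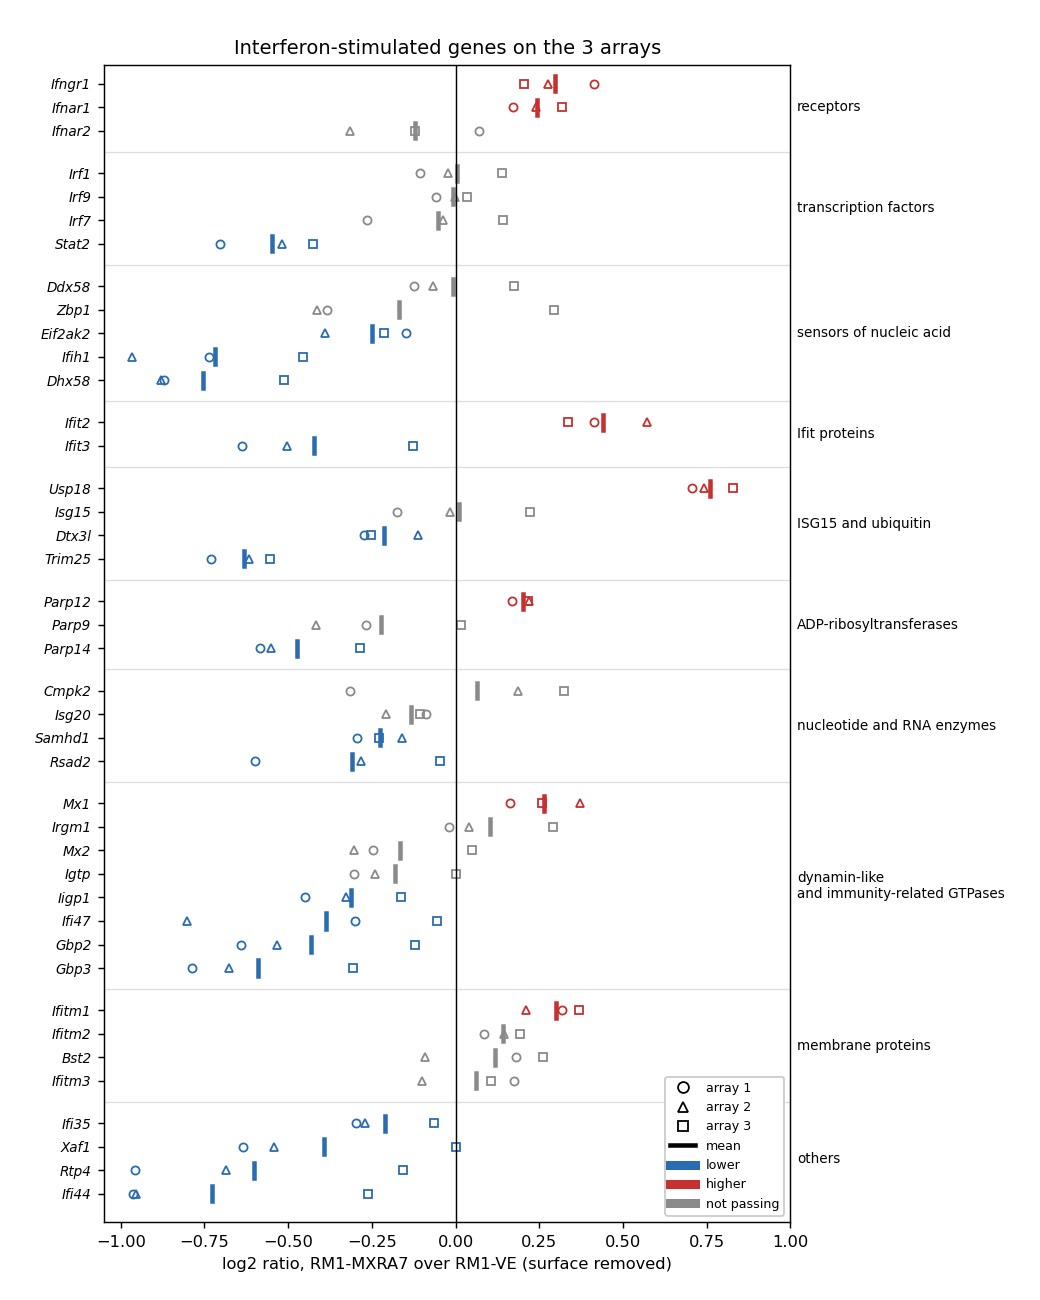
Log2 ratio of RM1-MXRA7 over RM1-VE (x axis) for the 41 members tested, grouped by role, with 1 open symbol per array and a bar at the mean; blue members were lower, red members higher and grey members did not pass (limma adjusted p over all genes). The 18 lower members lie left of 0 on every array, and the square of array 3 is nearest to 0 in 15 of them.

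**Figure D2:**
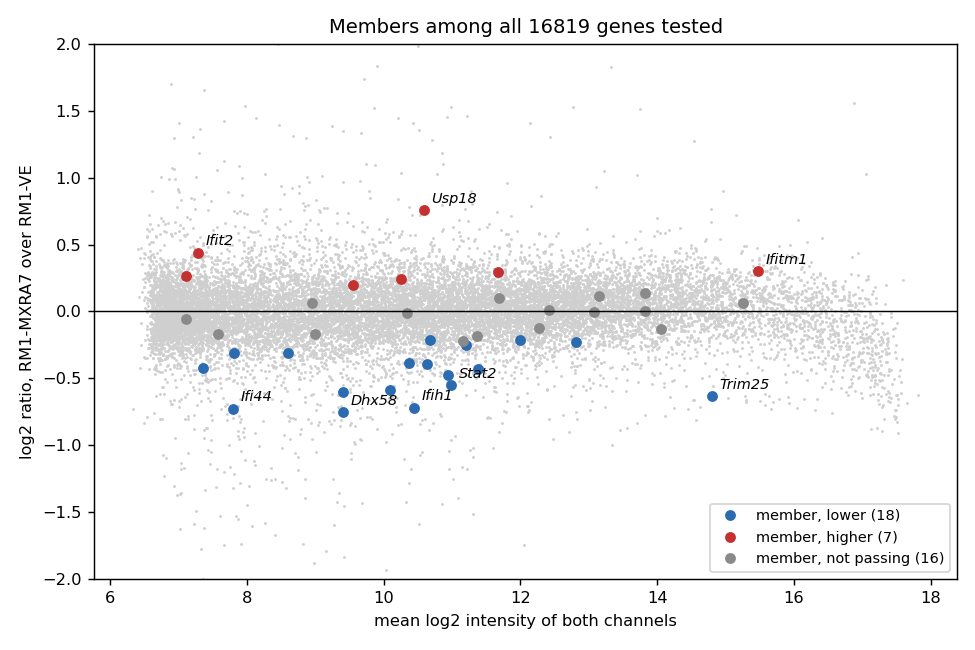
Log2 ratio (y axis) against mean log2 intensity of both channels (x axis) for all 16819 genes tested in light grey, with the 41 members coloured by call; 33 genes lie beyond the limits of 2 on the y axis. Members lie at all intensities, with Trim25 the brightest of the lower members and Usp18 at the top.

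Among the receptors, Ifngr1 and Ifnar1 were higher. Ifngr1, the ligand-binding chain of the interferon gamma receptor, had log2 ratios of 0.41, 0.28 and 0.20 on arrays 1, 2 and 3. Its mean was 0.30 ± 0.11 (SD, n = 3), a 1.23-fold higher level (limma adjusted p = 0.0086). Its probe lies at chr10:19329923-19329982 (mm9, the build of the array files). Ifnar1, a chain of the type I interferon receptor, had ratios of 0.17, 0.24 and 0.32. Its mean was 0.24 ± 0.07 (SD, n = 3; limma adjusted p = 0.0154). All arrays were above 0 for both genes, and with loess alone the means were 0.60 and 0.51. The dimmer Ifnar1 probes, which start at bases 2880 and 1536 of the transcript, had means of -0.13 and -0.06, while the probe used starts at base 6918. The higher call of Ifnar1 therefore holds for 1 of its 3 probes. Ifnar2, the partner chain, had ratios of 0.07, -0.32 and -0.12, with arrays on both sides of 0, and did not pass (mean -0.12; limma adjusted p = 0.251).

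Of the transcription factors, Stat2 was lower and 3 interferon regulatory factors did not pass. Stat2, the partner of Irf9 in the type I complex, had ratios of -0.70, -0.52 and -0.43. Its mean was -0.55 ± 0.14 (SD, n = 3), a 1.46-fold lower level (limma adjusted p = 0.0007), at a probe of chr10:127729834-127729893 (mm9). All arrays were well below 0, and every alternative processing kept the call, with means from -0.74 to -0.47. Irf9, the DNA-binding member of that complex, had ratios of -0.06, 0.00 and 0.03. Irf1, an activator of interferon gamma targets, had ratios of -0.11, -0.02 and 0.14. Irf7, which drives type I interferon genes, had ratios of -0.26, -0.04 and 0.14. These 3 genes had means of -0.05 to 0.00 and ratios of both signs.

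The sensors of nucleic acid held 2 of the 3 largest falls among the members. Dhx58 encodes LGP2, a regulator of RNA sensing, and had ratios of -0.87, -0.88 and -0.51. Its mean was -0.75 ± 0.21 (SD, n = 3), a 1.69-fold lower level (limma adjusted p = 0.000325). Ifih1 encodes MDA5, a sensor of long double-stranded RNA, and had ratios of -0.74, -0.97 and -0.46. Its mean was -0.72 ± 0.25 (SD, n = 3; limma adjusted p = 0.000724). A second Ifih1 probe at base 4349 was not well above background and had a mean of -0.09. Both genes were below 0 on all arrays, with array 3 the least low. Ddx58, which encodes the related sensor RIG-I, had ratios of -0.13, -0.07 and 0.17 and did not pass (mean -0.01; limma adjusted p = 0.951). Eif2ak2, the kinase PKR that shuts off translation on double-stranded RNA, had ratios of -0.15, -0.39 and -0.21. It was lower (mean -0.25 ± 0.13, SD, n = 3; limma adjusted p = 0.0208), but loess alone gave -0.11 and no call. Zbp1, a sensor of Z-form nucleic acid, had ratios of -0.39, -0.41 and 0.29, so that array 3 opposed the others, and did not pass.

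Among the 3 Ifit genes, which encode RNA-binding repressors of viral translation, Ifit2 and Ifit3 moved in opposite directions. Ifit2 had ratios of 0.41, 0.57 and 0.33. Its mean was 0.44 ± 0.12 (SD, n = 3; limma adjusted p = 0.00164). Ifit3 had ratios of -0.64, -0.50 and -0.13. Its mean was -0.42 ± 0.27 (SD, n = 3; limma adjusted p = 0.01). The probes lie 12.9 kb apart on chromosome 19, at chr19:34650244-34650303 and chr19:34663105-34663164 (mm9). Both probes were dim, with mean log2 intensities of 7.29 and 7.35, and Agilent's own processed signals gave 0.78 for Ifit2 and -0.65 for Ifit3. Ifit3 has a near-identical copy, Ifit3b, whose RNA may reach the same probe. Ifit1 was not well above background in either channel on any array and was not tested.

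In the ISG15 system, Usp18 was higher and Isg15 did not pass. Usp18, which removes ISG15 from proteins and blocks receptor signalling, had ratios of 0.71, 0.74 and 0.83. Its mean was 0.76 ± 0.06 (SD, n = 3), a 1.69-fold higher level (limma adjusted p = 4.8e-05), at a probe of chr6:121220874-121220933 (mm9). The values lay close together and above those of every other member on each array. Isg15, the ubiquitin-like protein itself, had ratios of -0.18, -0.02 and 0.22 (mean 0.01). With loess alone it was higher at 0.22 (limma adjusted p = 0.0355). Dtx3l, a ubiquitin ligase that pairs with Parp9, had ratios of -0.27, -0.11 and -0.25 and was lower (mean -0.21 ± 0.09, SD, n = 3; limma adjusted p = 0.0287). Loess alone gave -0.11 for Dtx3l and no call, and its dimmer probes had means of -0.04 and 0.14.

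Trim25, a ubiquitin ligase that activates RIG-I, had ratios of -0.73, -0.62 and -0.55 and a mean of -0.63 ± 0.09 (SD, n = 3; limma adjusted p = 0.000183). The last 30 bases of its 60-base probe are shown because all of them belong to a repeat, in capitals.
Trim25 probe, last 30 bases: GTGTGTGTGTGTGTGTGTGTGTGTGTGTGT
The run of alternating bases is 31 bases long in this probe and at most 9 in every other member probe. Of the kept probes on the array, 52 held such a run of GT of 20 bases or more, and all 52 had mean log2 ratios below 0, with a median of -0.56. Their quartiles were -0.67 and -0.46, and 21 of the 52 were at or below the value of Trim25. In contrast, 2402 kept probes without a run and with a mean log2 intensity of 14 or more had a median of 0.01, and 47.1% of them were below 0. The other Trim25 probe, at base 5476 of its transcript, had ratios of -0.04, -0.43 and -0.19 with a mean of -0.22. In a fit without probes that hold a run of 20 bases or more, chosen after the data were seen, Trim25 did not pass (limma adjusted p = 0.0605). That fit had 17 members lower and 7 higher, against 15.9% and 15.6% of 16761 genes. The value of the probe behind the call lay within the quartiles of the GT-run probes.

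**Figure D3:**
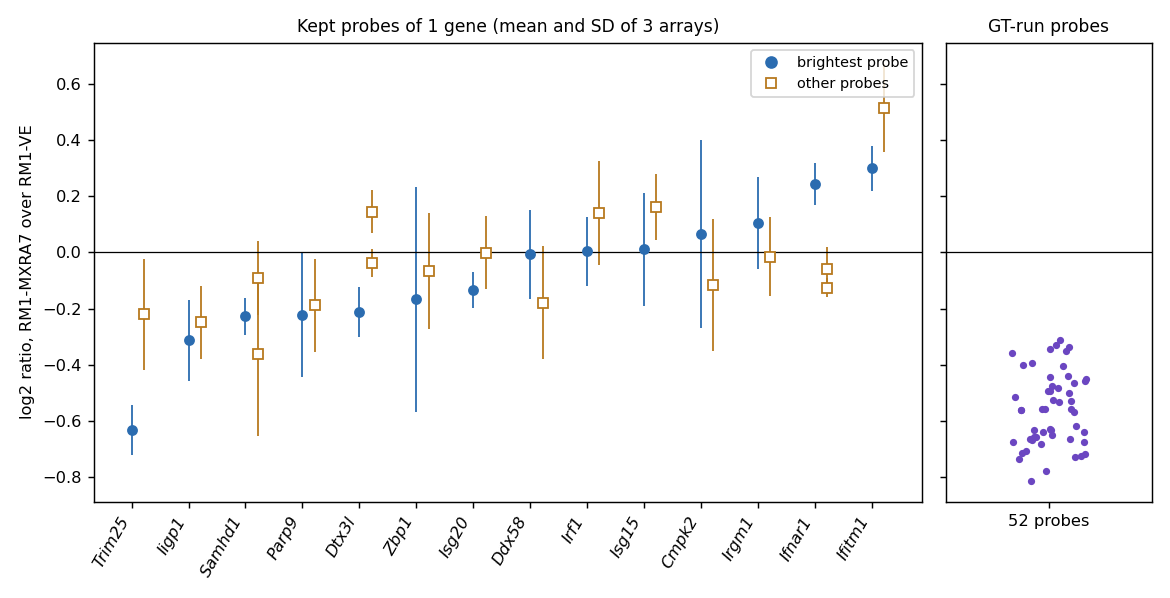
Left, mean log2 ratio (y axis) with the SD of 3 arrays for the 14 member genes with more than 1 kept probe of that name in the files, the brightest probe in blue and the others in open squares; right, the 52 kept probes with a run of GT, 1 point each, spread sideways for display. In 10 of the 14 genes all kept probes have 1 sign, and all GT-run probes lie below 0. The 10 include Ifitm1, whose other probe is placed on chromosome 8, and Isg20, with a probe at -0.00068.

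Of the 3 ADP-ribosyltransferases, 1 was lower, 1 was higher and 1 did not pass. Parp14, which modifies Stat and other signalling proteins, had ratios of -0.58, -0.55 and -0.29 and was lower (mean -0.47 ± 0.16, SD, n = 3; limma adjusted p = 0.0019). Parp12, an antiviral enzyme, had ratios of 0.17, 0.22 and 0.22 and was higher (mean 0.20 ± 0.03, SD, n = 3; limma adjusted p = 0.0264). It lost the call in 6 of 16 alternative processings, and median centring in place of loess gave 0.02. Parp9, the partner of Dtx3l, had ratios of -0.27, -0.42 and 0.02. It did not pass (mean -0.22; limma adjusted p = 0.0701), and with loess alone it was lower at -0.42 (limma adjusted p = 0.00057). The probes of Parp9 and Dtx3l lie 45.9 kb apart and those of Parp9 and Parp14 lie 140 kb apart on chromosome 16.

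Nucleotide and RNA enzymes showed falls of Rsad2 and Samhd1. Rsad2 encodes viperin, which makes a chain-terminating nucleotide, and had ratios of -0.60, -0.28 and -0.05. It was lower with a wide spread (mean -0.31 ± 0.28, SD, n = 3; limma adjusted p = 0.0372). Its neighbour Cmpk2, a mitochondrial nucleotide kinase whose probe lies 36.3 kb away, had ratios of -0.31, 0.19 and 0.32 and did not pass. Samhd1, which hydrolyses deoxynucleotides, had ratios of -0.29, -0.16 and -0.23 (mean -0.23 ± 0.07, SD, n = 3; limma adjusted p = 0.0194). Its mean was -0.51 with loess alone, and its other probes gave -0.09 and -0.36. Isg20, an exonuclease, had ratios of -0.09, -0.21 and -0.11 and did not pass (limma adjusted p = 0.109). With loess alone Isg20 turned to 0.32 and was higher (limma adjusted p = 0.00366), so its direction depends on the removal of the positional trend.

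Of the 8 GTPases that act on viruses or on pathogen-containing vacuoles, 4 were lower and 1 was higher. Gbp3 had ratios of -0.79, -0.68 and -0.31 (mean -0.59 ± 0.25, SD, n = 3; limma adjusted p = 0.00187), and Gbp2, whose probe lies 64.7 kb away on chromosome 3, had -0.64, -0.53 and -0.12 (mean -0.43 ± 0.28, SD, n = 3; limma adjusted p = 0.0101). Both guanylate-binding proteins were below 0 on all arrays and least so on array 3. Ifi47, an immunity-related GTPase, had ratios of -0.30, -0.80 and -0.05 (mean -0.39 ± 0.38, SD, n = 3; limma adjusted p = 0.0386), so array 2 was the lowest by far. Iigp1, of the same family, had ratios of -0.45, -0.33 and -0.16 and was lower (mean -0.31 ± 0.14, SD, n = 3; limma adjusted p = 0.01), while loess alone gave -0.18 and no call. Mx1, a dynamin-like inhibitor of influenza virus, had ratios of 0.16, 0.37 and 0.26 and was higher (mean 0.26 ± 0.11, SD, n = 3; limma adjusted p = 0.014). The Mx1 probe was dim, with a mean log2 intensity of 7.10. Mx1 lost the call in 6 of 16 alternative processings, and median centring in place of loess gave 0.07. Its paralog Mx2 had ratios of -0.25, -0.30 and 0.05 and did not pass. Igtp and Irgm1, also of the immunity-related family, did not pass, with means of -0.18 and 0.10. With loess alone Irgm1 turned to -0.12, also without a call.

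Among the membrane proteins, Ifitm1 was higher and 3 others did not pass. Ifitm1, of a family that blocks viral entry, had ratios of 0.32, 0.21 and 0.37 (mean 0.30 ± 0.08, SD, n = 3; limma adjusted p = 0.00674). A second probe that the files name Ifitm1 gave 0.52 (0.14 with loess alone), but they place it at chr8:13896764-13896823 (mm9), whereas the probe used lies at chr7:148155659-148155718, so it is no second reading of this locus. Ifitm2 had ratios of 0.09, 0.15 and 0.19 and did not pass (mean 0.14; limma adjusted p = 0.0907), whereas loess alone gave 0.52 and a higher call (limma adjusted p = 7.28e-05). Ifitm3 and Bst2, the latter known as tetherin, had means of 0.06 and 0.12. With loess alone Bst2 turned to -0.11, also without a call. The Ifitm genes are close paralogs, and part of their signal may be shared.

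The remaining members were all lower. Ifi44, a cytoplasmic protein of the interferon response, had ratios of -0.96, -0.95 and -0.26 (mean -0.73 ± 0.40, SD, n = 3), a 1.65-fold lower level (limma adjusted p = 0.00346). Rtp4, a chaperone for receptor transport, had ratios of -0.96, -0.69 and -0.16 (mean -0.60 ± 0.41, SD, n = 3; limma adjusted p = 0.00852). Xaf1, a pro-apoptotic protein, had ratios of -0.63, -0.54 and 0.00 (mean -0.39 ± 0.34, SD, n = 3; limma adjusted p = 0.0274). In these 3 genes the value of array 3 stood apart from the other two. Ifi35 had ratios of -0.30, -0.27 and -0.07 (mean -0.21 ± 0.13, SD, n = 3; limma adjusted p = 0.039), and -0.44 with loess alone. Ifi27 is listed in the files under the name Ifi27l1, with an accession that RefSeq gives to Ifi27, and is left out of every count. Its ratios were -0.49, -0.38 and -0.03 (mean -0.30; limma adjusted p = 0.0301).

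The first 30 bases of the probes behind the largest rises and falls show what was hybridised, and all probes are 60 bases long. They are written 5′ to 3′ with no part marked, and the base at which each starts in its transcript is given.
Usp18, from base 1709: ccaagctggttggagcctccagccttcaaa
Ifit2, from base 3168: tcatataaacatttatttcaagagtatgga
Ifitm1, from base 634: tgtgacactcacaaatctgtccatggtgga
Dhx58, from base 2279: ggaagatgaacgcaggagaattattatgcc
Ifi44, from base 2700: atgaattcattaagagagtagtgagagaac
Ifih1, from base 3802: actaccacacagtcatggattaaaacctca

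The size of the falls differed between arrays. The 18 lower members had median log2 ratios of -0.64, -0.54 and -0.22 on arrays 1, 2 and 3, while the 2742 lower genes of the whole array had -0.29, -0.30 and -0.31. Array 3 was the least low in 15 of the 18, and in 10 of them its value was under 0.5 times the mean of the other arrays. The 7 higher members had medians of 0.32, 0.28 and 0.32 and showed no such gap. Without array 3, 21 members were lower and 5 higher, against 13.2% and 13.3% of all genes. Without array 2, 7 were lower and 3 higher, when 6.93% and 5.72% of all genes were lower and higher. Without array 1, 13 were lower and 8 higher, against 14.7% and 14.3%.

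The positional trend could be read directly in members that were spotted 10 times on each array. With loess alone, 5 Ifitm3 spots in rows up to 250 averaged 0.52, 0.23 and 0.37 on arrays 1, 2 and 3, and 5 spots in later rows averaged -0.06, -0.28 and -0.12. After the trend was removed, these averages were 0.09, -0.24 and 0.01 in the early rows and 0.26, 0.04 and 0.20 in the later rows. The spots of this bright probe thus ran the opposite way after removal, on all 3 arrays, and single spots on array 2 lay from -0.32 to 0.22. Igtp spots went from 0.02 in early rows and -0.43 in later rows of array 2 to -0.17 and -0.31. The SD between the 10 spots fell from 0.303 to 0.176 for Ifitm3 and from 0.266 to 0.101 for Igtp on that array. The members spotted once carry a remaining positional error that these spots show but that cannot be measured for them. An error of 1 direction on all arrays does not widen the spread between arrays, so p-values do not account for it. Calls near 0.2 to 0.3 in size are of the same order, among them that of the bright Ifitm1 probe (mean 0.30).

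**Figure D4:**
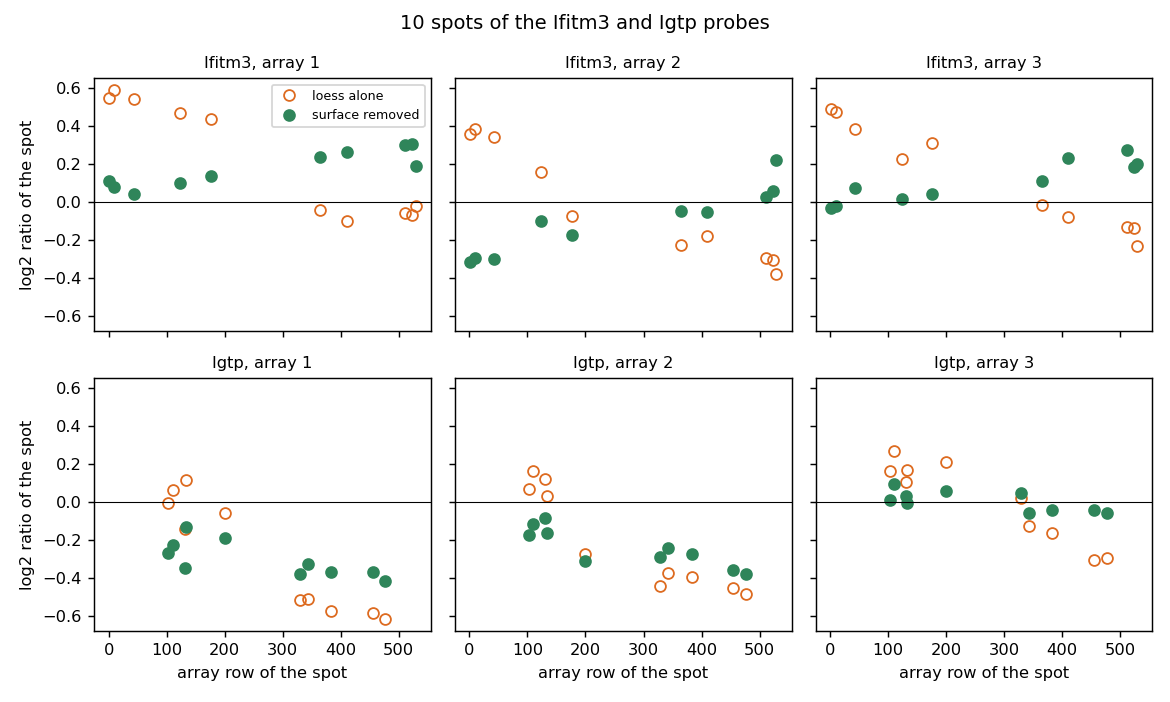
Log2 ratio of each of the 10 spots of Ifitm3 and Igtp (y axis) against its row on the array (x axis), per array, with loess alone in open orange and after removal of the trend in filled green. Loess ratios fall from early to later rows in all 6 panels, and removed ratios span less, with a rise over rows left in Ifitm3.

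**Figure D5:**
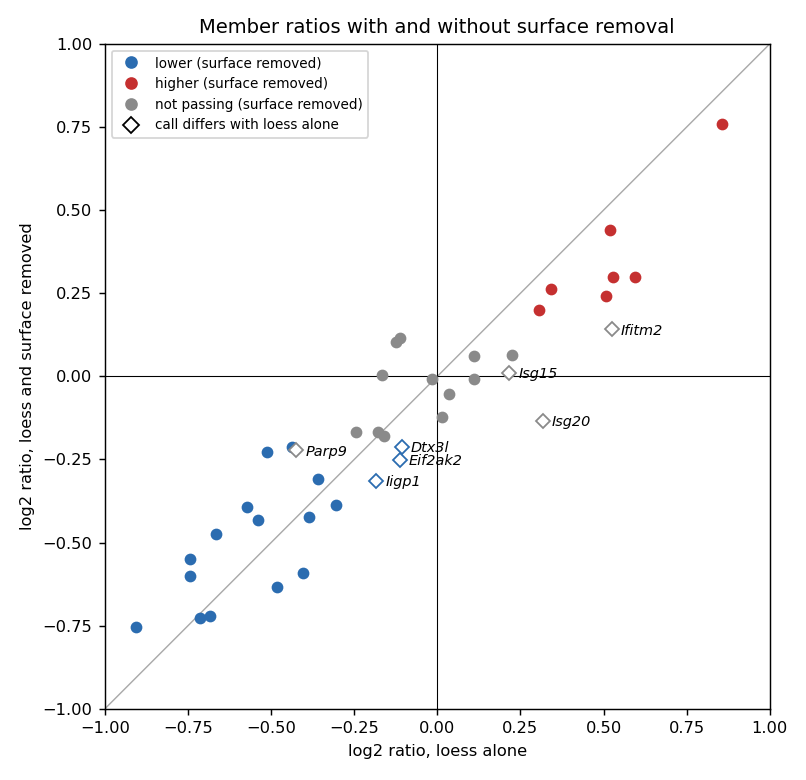
Mean log2 ratio of each member after loess and removal of the trend (y axis) against loess alone (x axis), coloured by call after removal, with the diagonal of equal values; open diamonds are named members whose call differs. Isg20 lies at 0.32 with loess alone and at -0.13 after removal, and 0 of the 25 called members change sign.

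Counts among genes of interferon production and signalling outside the members depended on the removal of the positional trend. Of 34 listed, 29 were tested. After the removal, 3 were higher and 3 lower (10.3% each), against 15.6% and 16.3% of all genes, and the median of the 29 was -0.04. The lower genes were Ifnlr1, a chain of the interferon lambda receptor, at -0.71 (limma adjusted p = 0.000431), Irf5, a factor that drives inflammatory genes, at -0.53, and Ptpn2, a phosphatase of Jak and Stat proteins, at -0.31. Higher were Il10rb, the other lambda receptor chain, at 0.22, Socs3, a feedback inhibitor, at 0.20 and the kinase Jak1 at 0.21 (limma adjusted p = 0.0468). With loess alone, 12 were lower and 2 higher, against 23.5% and 23.9% of all genes. Il10rb (0.12) and Socs3 (0.02) then lost the call, and Jak1 kept it. In Agilent's processed signals Socs3 and Jak1 did not pass. The probes of Ifnb1, Ifna2, Ifna4 and Ifng were not well above background.

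Further interferon-induced genes were also lower more often than higher. Of 36 listed, 32 were tested, with a median of -0.18. Of these, 15 were lower (46.9%) and 1 was higher (3.12%), against 16.3% and 15.6% of all genes. The difference of these shares from those of the members was not tested. The 4 with the smallest adjusted p were Sp110 at -0.73, Gbp4 at -0.61, Tor3a at -0.44 and Ifi27l2a at -0.90 (limma adjusted p from 0.000168 to 0.000821). The Sp110 value comes from a probe with a GT run, like that of Trim25. Without such probes, Sp110 had ratios of -2.02, -2.17 and -1.75 at its next brightest probe (mean -1.98; limma adjusted p = 1.42e-06), so it stayed lower at a far larger size. Ifi204, a DNA-binding family member, was higher at 0.28 (limma adjusted p = 0.0126) and stood at 0.07 with loess alone. Their lower genes had medians of -0.41, -0.43 and -0.24 on arrays 1, 2 and 3, so array 3 was again the least low.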

How the data were processed

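Total RNA of RM1-MXRA7 (Cy3) and RM1-VE (Cy5) was compared on 3 arrays. Per the file headers, the authors deposited Agilent Feature Extraction output (version 10.7.1.1 per the submitters' processing notes) with spot intensity, background and processed signal per channel. The authors' series matrix gives linear ratios, of which 99.6% lay within 1% of Cy3 over Cy5 processed signal, uncentred, with column medians of 1.02, 1.03 and 0.972.

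Intensities were corrected by normexp (offset 50) and loess-normalized within arrays (limma 3.58.1, R 4.3.3). Ratios ran along the array rows, so a surface over row and column (polynomials of degree 4, plain and multiplied by log2 intensity) was removed per array. This step is called the removal of the positional trend in the text. It took 27.4%, 26.3% and 19.8% of the variance, and lowered the median SD of genes between arrays from 0.118 to 0.0957. Spearman's rho across genes with Agilent's processed ratios was 0.719 before it and 0.92 after it. Probes were kept if well above background, in 1 or both channels, on every array (21792 of 39429), and the brightest kept probe stood for its gene. RefSeq accessions named 27508 probes, and 11921 kept the file's name. Ratios were tested against 0 with limma and adjusted by Benjamini-Hochberg over all genes. Each array is a numbered pair of lines, so the ratio holds the pairing. The steps were run on simulated ratios with known changes, to which the fitted surface was added. With the removal, 0 of 67 genes with a log2 change of 0.3 were called in the right direction. The counts were 28 of 67 at 0.5 and 58 of 66 at 1. Of 16619 unchanged genes, 0 were called with the removal and 2793 (16.8%) without it. The added surface was one the step can fit, and far fewer genes changed than were called in the arrays. These rates therefore need not hold for the arrays.

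Named genes are all members by role, and up to 4 genes per direction of each further list. Members and lists were chosen with earlier results of these data known, so counts over them are descriptions. Alternatives covered background, normalization, trend, filter, probes, test and arrays. Some list and marker genes are not reported here.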

Additional observations from a re-analysis of the deposited data

How the results depend on the processing

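Over 16 alternatives, the 41 members gave 656 values. Of these, 568 kept the call or stayed short of the threshold, 72 lost the call, 15 gained one and 1 reversed. Values short of the threshold could change sign and still count as kept, as those of Bst2 and Irgm1 did with no surface removal. The alternatives overlap, so these are not separate checks. Series matrix values are almost those of Agilent processed signals. Changes of the filter on dim probes and an intensity trend in the test left each tested member's ratio unchanged. Ifi44, Ifih1, Ifit2 and Stat2 kept direction and call under all 16. Isg20, which had not passed, reversed to 0.32 with a higher call under no surface removal. The median of the members, -0.17, ranged from -0.26 under median centring, where the median of all genes was -0.12, to -0.10 without replicate 2.

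With no surface removal, 4012 of all genes were higher, and 12 signalling genes were lower and 3 further induced genes higher. A surface of degree 2 left 1 signalling gene higher. Agilent processed signals and the series matrix values each gave 13 lower and 4 higher members, against 12.9% and 11.5% of all genes, 1 higher signalling gene, 9 lower further induced genes and 0 higher ones. Under median centring in place of loess, 4 members were higher, 10 signalling genes lower, and 6317 of all genes lower against 1442 higher. With no filter on dim probes, 4386 of 30342 genes were higher. In a fit of single channels with no replicate block, which drops the pairing of the lines on an array, 4 members were lower and 1 higher. That fit called 533 of all genes lower and 288 higher, 1 signalling gene lower and 0 higher, and 1 further induced gene lower and 0 higher. The cause of these changes was not tested.

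Leaving out 1 replicate each gave 7 (without replicate 2) to 21 lower members and 3 (without replicate 2) to 8 higher ones. Over all genes, 1166 to 2467 were lower and 962 to 2408 higher, the smallest counts again without replicate 2. Signalling genes had 2 to 6 lower and 0 to 1 higher, and further induced genes 7 to 17 lower and 0 to 1 higher. With 3 arrays on 1 slide, 1 dye orientation and positional error left after correction, small ratios are the least certain.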
